A study of Mus musculus with 12 samples.

Results

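The genes described here are 10 immediate early genes whose transcripts are known to rise while tissue is dissociated, *Fos*, *Fosb*, *Jun*, *Junb*, *Atf3*, *Egr1*, *Nr4a1*, *Ier2*, *Dusp1* and *Zfp36*, out of 48526 genes in the count tables. They were chosen by name and not by their values, though with earlier results of these data known. They were compared library by library over 4 groups of sorted mouse cardiomyocytes. All 10 had counts in all 12 libraries and passed the filter on low counts (mean normalized count over 5) in every comparison. In edgeR's quasi-likelihood test with that filter and without a replicate block, none of the 10 passed the adjustment for multiple testing in any comparison, whereas some other settings called *Fosb* or *Egr1*. *Fosb* and *Egr1* had the largest differences between cell types, with fitted levels 3.19-fold and 1.94-fold higher in Purkinje cells (PCs) than in ventricular myocytes (VMs), and their adjusted p-values of 0.0842 and 0.114 missed the threshold of 0.05.

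Immediate early genes are transcribed within minutes of a stimulus such as growth factors, calcium entry, stretch, hypoxia or stress, without the need for new protein synthesis. Kinase cascades activate factors that already sit at their promoters, among them serum response factor with its ternary complex partners and the cyclic AMP response element binding protein, and the short-lived transcripts decay soon after the stimulus ends. Enzymatic digestion and sorting of solid tissues, the heart included, are known to induce them, so they serve as a sign of what cells went through before lysis.

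The libraries came from adult male mice, *Ncam-1* WT or *Ncam-1* KO, that were crossed with *Cntn2*-EGFP reporter mice. The KO allele was kept on a C57BL/6 background and the bacterial artificial chromosome that carries the reporter on a CD1 background. All hearts were perfused on a Langendorff apparatus and digested, and the cells were stained with 50 nM of the mitochondrial dye TMRM and sorted on a microfluidic chip into PCs, positive for dye and GFP, and VMs, positive for the dye alone. Each of the 4 groups, WT PC, KO PC, WT VM and KO VM, held 3 libraries. A GFP-positive gate takes any cell in which the *Cntn2* reporter is active, and every group carried the reporter, the digestion and the dye. No group was left undissociated, so levels before dissociation were not measured. The labels do not say that replicates came from separate hearts, and the p-values measure the spread between these libraries. Replicates are numbered as in the sample titles, where WT libraries 2 and 3 carry the numbers 3 and 4 in their source names and KO libraries carry the same numbers in both, so a number does not tie a WT library to a KO library.

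Counts on genes ran from 13883427 to 42505705 per library, of which 1532393 to 6761356 lay outside the mitochondrial genome. *Ncam1* had 34 to 116 counts in WT PCs and 0 or 1 in KO PCs, with 0 to 9 in WT VMs and 0 in KO VMs. The summed normalized counts of 10 Purkinje markers were 1151 to 3690 in WT PCs and 401, 403 and 1744 in KO PCs, against 84.7 to 162 in VMs, and 10 cardiomyocyte markers summed to between 409761 and 712553 in every library. The library of WT PC replicate 2 stood apart, with 63.9% of its read pairs not aligned (18.8% to 24.7% in the others), 11847 genes with a count (13571 to 18129) and a median Spearman correlation with the other libraries of 0.834 (0.893 to 0.909). It had the fewest counts outside the mitochondrial genome, and main results for the members that rest on it are given with and without it. Tests of the other gene lists are not given without it.

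By role, 5 members encode basic leucine zipper proteins. FOS and FOSB pair with JUN or JUNB in the AP-1 transcription factor, and ATF3 is a stress-induced member of the same superfamily. *Egr1* encodes a zinc finger factor, *Nr4a1* an orphan nuclear receptor, and *Ier2* a nuclear protein of the immediate early response. *Dusp1* encodes a phosphatase that switches off MAP kinases, and *Zfp36* encodes tristetraprolin, which binds AU-rich elements of messenger RNAs and hastens their decay, so that both act in the feedback that ends the response. The count tables list them by Ensembl identifier, for example ENSMUSG00000003545 for *Fosb* and ENSMUSG00000038418 for *Egr1*. On GRCm38 (GENCODE release M21) *Fos* spans chr12:85473890-85477273, *Fosb* chr7:19302696-19310051, *Jun* chr4:95049034-95052222, *Junb* chr8:84974484-84978718 and *Atf3* chr1:191170296-191218039. *Ier2* lies at chr8:84661331-84662852, *Nr4a1* at chr15:101254269-101274795, *Dusp1* at chr17:26505590-26562128 and *Zfp36* at chr7:28376784-28380253.

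Because these genes are known for promoters that respond to signals, 5 upstream sequences are shown: those of *Fosb*, which differed most between cell types, of *Fos* and *Nr4a1* with several copies of the core of the cyclic AMP response element, of *Dusp1* with the whole element, and of *Zfp36* with the CArG box that serum response factor binds. The sequences are the 250 bases before the transcription start in RefSeq, build GRCm38.p6, written 5′ to 3′ on the gene's strand, with matches to TGACG or its complement CGTCA, to TGACGTCA and to the CArG box in capitals.
Fos (chr12:85473640-85473889, plus strand): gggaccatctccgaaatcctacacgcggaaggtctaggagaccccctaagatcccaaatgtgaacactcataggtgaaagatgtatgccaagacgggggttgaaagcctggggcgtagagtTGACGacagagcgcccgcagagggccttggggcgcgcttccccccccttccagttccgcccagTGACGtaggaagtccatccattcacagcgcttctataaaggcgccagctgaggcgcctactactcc
Fosb (chr7:19310046-19310295, minus strand): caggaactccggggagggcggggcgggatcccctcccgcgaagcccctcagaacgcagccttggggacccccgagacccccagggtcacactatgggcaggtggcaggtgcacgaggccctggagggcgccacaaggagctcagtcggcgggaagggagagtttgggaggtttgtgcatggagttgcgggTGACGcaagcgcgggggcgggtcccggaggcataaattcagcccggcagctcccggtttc
Nr4a1 (chr15:101266596-101266845, plus strand): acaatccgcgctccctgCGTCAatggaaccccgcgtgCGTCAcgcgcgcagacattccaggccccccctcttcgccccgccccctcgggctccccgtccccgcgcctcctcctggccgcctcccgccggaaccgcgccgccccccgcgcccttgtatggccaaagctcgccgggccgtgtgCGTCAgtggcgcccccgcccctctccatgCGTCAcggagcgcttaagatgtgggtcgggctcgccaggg
Dusp1 (chr17:26508473-26508722, minus strand): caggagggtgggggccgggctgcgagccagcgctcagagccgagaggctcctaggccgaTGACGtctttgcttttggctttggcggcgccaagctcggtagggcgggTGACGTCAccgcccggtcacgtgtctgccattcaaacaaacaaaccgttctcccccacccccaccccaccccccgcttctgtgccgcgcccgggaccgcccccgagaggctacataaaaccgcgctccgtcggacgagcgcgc
Zfp36 (chr7:28379229-28379478, minus strand): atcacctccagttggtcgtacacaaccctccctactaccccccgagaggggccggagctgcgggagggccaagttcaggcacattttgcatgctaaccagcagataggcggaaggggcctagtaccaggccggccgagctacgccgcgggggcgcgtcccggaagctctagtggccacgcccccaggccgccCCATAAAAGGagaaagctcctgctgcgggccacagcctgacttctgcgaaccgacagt

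Windows were at hand for 8 members, all but *Egr1* and *Ier2*, and for 32851 transcription starts in all. On either strand the core TGACG stood in 6 of the 8 windows, those of *Fos*, *Fosb*, *Junb*, *Atf3*, *Nr4a1* and *Dusp1*, and in 17.8% of all windows. *Nr4a1* held 4 copies, all read as CGTCA, and *Fos* held 2, at 129 to 125 and 66 to 62 bases upstream of the start. The full palindrome TGACGTCA, each copy of which also holds 2 overlapping copies of the core, was found upstream of *Dusp1* alone among the members, at 143 to 136 bases, and in 1.55% of all windows. The CArG box was matched upstream of *Zfp36*, at 58 to 49 bases, and in 1.47% of all windows. An EGR site, GCGNGGGCG on either strand, stood in the windows of *Fosb*, *Nr4a1* and *Zfp36* (4.7% of all), and TATAAA in that of *Fos* (12.4%). No member had the AP-1 site TGANTCA within its 250 bases, which 6.75% of all windows did. These matches describe letters in the window, and binding was not measured.

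Normalized counts per kb of exon, with all annotated exons of a gene merged, allow the members to be ranked against each other. *Fos* had the highest mean over the 12 libraries, 176 per kb (range 80.3 to 283), followed by *Dusp1* at 159 (104 to 233) and *Jun* at 147 (48.3 to 236). *Atf3* and *Egr1* came next at 87.2 (29.9 to 163) and 77.6 (26.2 to 127). *Nr4a1* had 40.5 (14.5 to 82.4), *Zfp36* 32.1 (11.2 to 60.3), *Junb* 27.5 (17.9 to 52.5) and *Ier2* 26.0 (9.28 to 54.3). *Fosb* was last at 2.88 per kb (0.751 to 7.13), and its highest library lay below the lowest library of every other member. Every other pair of neighbours in this order had overlapping ranges. In each group the mean level of *Fos* per kb exceeded that of 94.3% to 95.1% of the genes tested, whereas *Fosb* exceeded 21.8% to 26.9% of them in PCs and 6.33% to 10.2% in VMs.

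**Figure D1:**
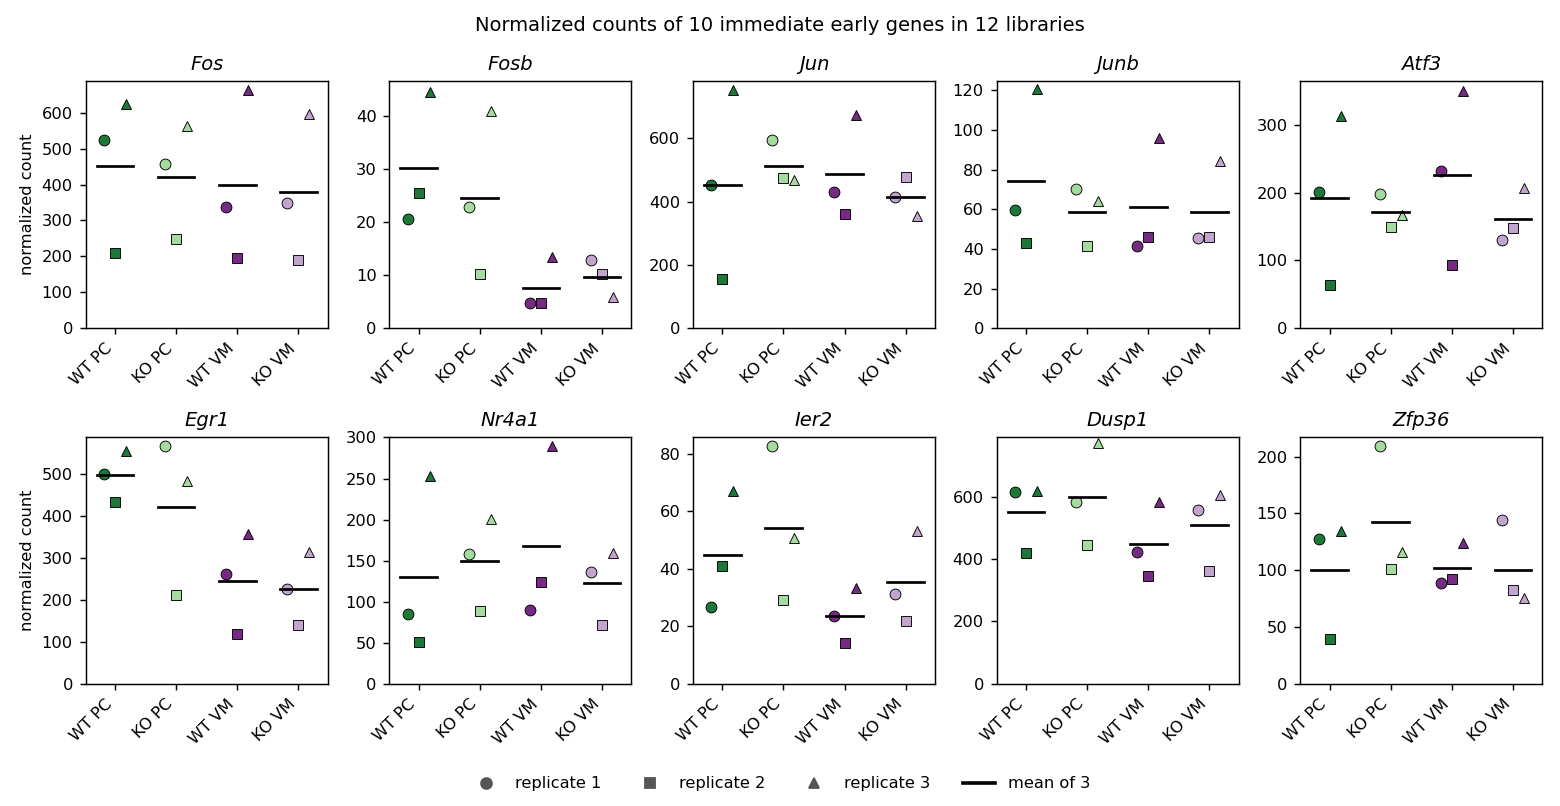
Normalized counts (y axis, from 0, with a scale of its own for each gene) of the 10 immediate early genes in the 12 libraries, by group, with 1 point per library, shapes for replicates and a bar at the mean of 3. *Fosb* and *Egr1* in WT PCs lay above all WT VM libraries, whereas the other 8 members overlapped between those groups.

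Values per library are normalized counts, given in the order of replicates 1, 2 and 3. For *Fos*, WT PCs had 524, 209 and 624 and KO PCs 457, 247 and 563. In VMs *Fos* stood at 338, 197 and 665 in WT and 348, 189 and 597 in KO. Replicate 2 was the lowest library and replicate 3 the highest in all 4 groups, and the groups overlapped throughout. *Fosb*, the rarest member, had 20.5, 25.4 and 44.5 in WT PCs and 22.9, 10.1 and 40.8 in KO PCs. Its levels in VMs were 4.69, 4.71 and 13.3 in WT and 12.7, 10.3 and 5.79 in KO, from 5 to 18 raw counts. The WT PC libraries all lay above the WT VM libraries, while KO PC replicate 2 lay below 2 of the 3 KO VM libraries.

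For *Jun* the levels were 454, 154 and 751 in WT PCs and 594, 475 and 468 in KO PCs. In VMs *Jun* had 430.4, 361 and 674 in WT and 416, 479 and 353 in KO. WT PC libraries spanned both the lowest and the highest *Jun* value of all 12. *Junb* had 59.7, 42.9 and 121 in WT PCs and 70.3, 41.7 and 64.2 in KO PCs. In VMs *Junb* had 41.3, 46.1 and 96.1 in WT and 45.3, 46.2 and 84.5 in KO. Replicate 3 stood above the other libraries in WT PCs and in both VM groups. *Junb* shares 173 exon bases with *Prdx2* on the opposite strand, and whether counting used strand is not given in the sources used here, so reads there cannot be told apart. *Atf3* had 201, 64.4 and 313 in WT PCs and 199, 149 and 168 in KO PCs. *Atf3* in VMs stood at 233, 93.2 and 351 in WT and 130.1, 148 and 207 in KO. Values in KO lay within the range of the WT values in both cell types.

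*Egr1* had 501, 435 and 556 in WT PCs and 568, 211 and 484 in KO PCs. Its levels in VMs were 262, 118 and 356 in WT and 226, 141 and 314 in KO. All WT PC libraries, replicate 2 included, exceeded the highest WT VM library, and in KO the PC library of replicate 2 fell among the VM libraries. *Nr4a1* had 85.0, 50.7 and 253 in WT PCs and 158, 88.4 and 200.5 in KO PCs. In VMs *Nr4a1* had 90.0, 123 and 289 in WT and 136, 71.9 and 159.8 in KO. Replicate 3 was highest in all 4 groups. *Ier2* had 26.6, 41.0 and 67.0 in WT PCs and 82.6, 29.04 and 50.8 in KO PCs. *Ier2* in VMs was at 23.4, 14.1 and 33.3 in WT and 31.1, 21.8 and 53.3 in KO. PC and VM libraries overlapped in both genotypes.

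Of the feedback genes, *Dusp1* varied least. *Dusp1* had 617, 421 and 618 in WT PCs and 584, 446 and 773 in KO PCs. In VMs *Dusp1* had 423, 344 and 584 in WT and 559, 363 and 607 in KO. Its highest library was 2.24 times the lowest, the smallest ratio of the 10 members, where *Fosb* had 9.49 and *Ier2* 5.85. *Zfp36* had 127, 39.01 and 135 in WT PCs and 209, 101 and 116 in KO PCs. *Zfp36* in VMs was at 89.1, 92.2 and 124 in WT and 144, 82.2 and 75.3 in KO. Its lowest value was that of WT PC replicate 2 and the groups overlapped.

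The comparison of WT PCs with WT VMs asked how the conduction cells of the reporter gate differed from working myocytes that went through the same dissociation. *Fosb* averaged 30.1 ± 12.7 (SD, n = 3) in PCs and 7.57 ± 4.97 in VMs, and the fitted difference was 1.93 on the log2 scale (SE 0.66, 3.82-fold, 95% interval 1.37 to 10.7, unadjusted p = 0.0162, adjusted p = 0.670 by edgeR, with the Benjamini-Hochberg method over all genes). *Egr1* averaged 498 ± 60.8 in PCs and 245 ± 120 in VMs, a difference of 0.99 (SE 0.37, 1.99-fold, interval 1.11 to 3.55, unadjusted p = 0.0253, adjusted p = 0.719 by edgeR). These were the 2 members with an unadjusted p under 0.05, where 6.36% of the 11822 genes tested were (5.14% on the PC side). They were also the 2 whose groups did not overlap with PCs higher, as for 7.29% of genes, and no member's groups were apart with PCs lower, as for 6.56%. The adjustment was passed by 13 genes (0.11%), none of them a member. *Ier2* differed by 0.89 (SE 0.53, unadjusted p = 0.125 by edgeR), and the other 7 by between -0.38 for *Nr4a1* and 0.27 for *Junb*. The median over the 10 members was 0.21 and over all genes close to 0, and 6 members were positive, as were 49.7% of genes. Leaving out single libraries gave 4 to 10 positive members. Leaving out WT PC replicate 2 gave 2.02 for *Fosb* (unadjusted p = 0.00310 by edgeR) and 1.09 for *Egr1* (unadjusted p = 0.00415), and no member had an unadjusted p under 0.05 without WT PC replicate 3, WT VM replicate 1 or WT VM replicate 2. In bulk libraries fewer cells that express a gene and less of its RNA per cell cannot be told apart.

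The same contrast within KO rests on separate libraries. *Egr1* averaged 421 ± 187 (SD, n = 3) in KO PCs and 227 ± 86.3 in KO VMs, a difference of 0.88 (SE 0.31, 1.85-fold, interval 1.18 to 2.89, unadjusted p = 0.0107, adjusted p = 0.260 by edgeR). *Fosb* averaged 24.6 ± 15.4 and 9.60 ± 3.52, a difference of 1.40 (SE 0.60, 2.64-fold, interval 1.10 to 6.36, unadjusted p = 0.0326, adjusted p = 0.450 by edgeR). The same 2 members therefore had an unadjusted p under 0.05, against 9.7% of the 10779 genes tested and 7.11% that were so on the PC side, and no member's groups were separate, as 8.66% were with PCs higher and 6.92% with PCs lower. The adjustment was passed by 94 genes (0.872%) and no member. *Jun*, *Zfp36* and *Ier2* differed by 0.30 (SE 0.16), 0.48 (SE 0.30) and 0.58 (SE 0.42), with unadjusted p of 0.0888, 0.129 and 0.188 by edgeR. The 10 estimates ran from -0.01 for *Junb* to 1.40 and 9 were positive, against 51.1% of genes. Leaving out single libraries gave 7 to 10 positive. The members varied together over the libraries, so their signs are not separate observations. Without KO PC replicate 3 the *Fosb* difference was 0.75 (unadjusted p = 0.308 by edgeR), and it also missed 0.05 without KO VM replicate 2 (0.0654) or replicate 3 (0.120). *Egr1* missed 0.05 without KO PC replicate 1 (unadjusted p = 0.0687 by edgeR) or KO VM replicate 2 (0.0645), and with no filter on low counts its adjusted p was 0.000253. *Zfp36* had 0.81 without KO VM replicate 1, *Jun* 0.41 without KO VM replicate 2 and *Fos* 0.66 without KO VM replicate 3, with unadjusted p of 0.0193, 0.0421 and 0.0468 by edgeR.

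**Figure D2:**
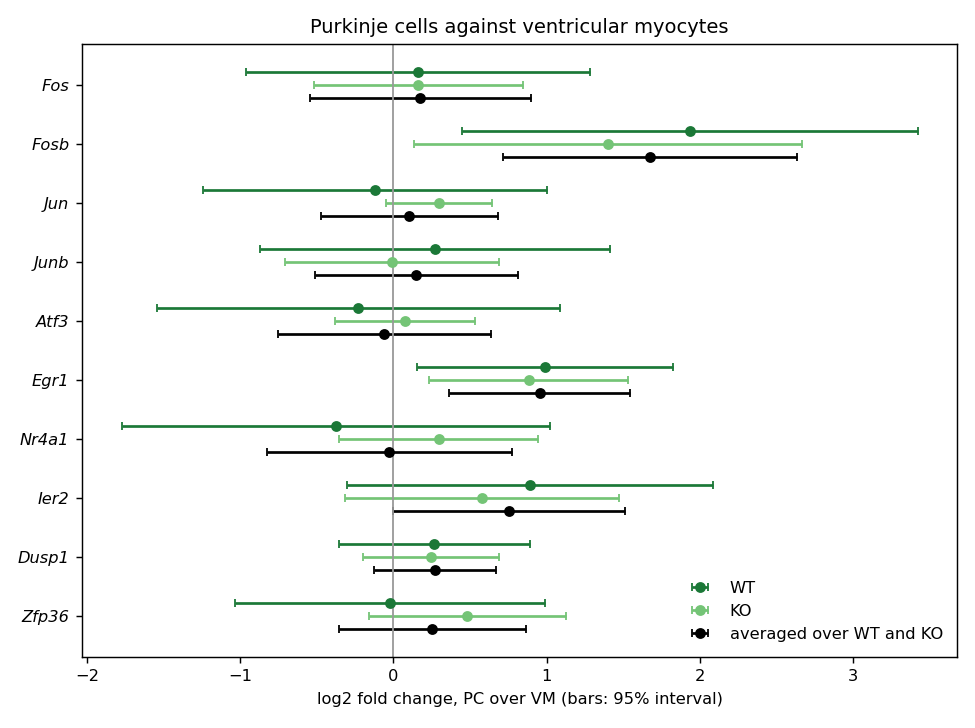
Log2 fold change of PC over VM (x axis) for each of the 10 genes, with points for WT, KO and the average over both genotypes and bars for 95% intervals. The intervals of *Fosb* and *Egr1* lie above 0 in all 3, before adjustment, and those of the other 8 genes reach or cross 0.

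Averaged over genotypes in a fit of all 12 libraries, *Fosb* differed by 1.67 (SE 0.45, 3.19-fold, interval 1.64 to 6.21, unadjusted p = 0.00202, adjusted p = 0.0842 by edgeR) and *Egr1* by 0.95 (SE 0.28, 1.94-fold, interval 1.29 to 2.92, unadjusted p = 0.00358, adjusted p = 0.114 by edgeR). Unadjusted p-values under 0.05 were held by 11.4% of the 11323 genes tested, 8.54% on the PC side, and adjusted ones by 166 genes (1.47%). *Ier2* had 0.75 (SE 0.36, 1.69-fold, unadjusted p = 0.0510 by edgeR), and its unadjusted p was 0.0247 to 0.0330 without KO PC replicate 2, KO VM replicate 3, WT PC replicate 1, WT PC replicate 2 or WT VM replicate 3. Of the 10 estimates 8 were positive (6 to 10 with single libraries left out), against 51.9% of genes. The other 7 members ran from -0.06 for *Atf3* to 0.27 for *Dusp1*, whose interval in fold was 0.914 to 1.59. For *Fos* the interval was 0.686 to 1.86 and for *Jun* 0.719 to 1.60, so that differences within those bounds were not resolved with 3 libraries a group. Both *Fosb* and *Egr1* passed the adjustment with DESeq2's Wald test (adjusted p = 0.0138 and 0.0247) and in edgeR without WT PC replicate 2 (0.0261 and 0.0318) or with no filter on low counts (0.0224 and 1.91e-05).

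Markers of other cell types moved with this contrast. In the average over genotypes, edgeR's adjusted test called 6 of 9 fibroblast markers tested, 3 of 10 endothelial, 3 of 9 smooth muscle and pericyte, and 2 of 6 leukocyte markers higher in PCs, and none lower. The sum of the 10 fibroblast markers was 1003 to 2325 in WT PCs and 814 to 1343 in KO PCs, against 297 to 535 in WT VMs and 94.8 to 433 in KO VMs. The 10 leukocyte markers summed to 292 to 722 and 274 to 309 in PCs and to 58.4 to 162 and 14.1 to 79.6 in VMs. The highest sum of both lists was that of WT PC replicate 2. Of the endothelial markers 8 of 10 had an unadjusted p under 0.05, all higher in PCs, with a median log2 difference of 1.58, and of the smooth muscle and pericyte markers 6 of 9 did, with a median of 1.37. The sums of these lists overlapped between PCs and VMs, at 6337 to 11109 and 6671 to 8919 for endothelial and 4042 to 6743 and 4298 to 4964 for smooth muscle and pericyte markers. Most of each sum came from a single gene, *Cd36* (5528 to 9359) and *Abcc9* (2760 to 4602). Of the fibroblast markers, *Dcn*, a matrix proteoglycan, was higher in PCs by 2.03 (SE 0.30, adjusted p = 0.00300 by edgeR) and *Pdgfra*, a growth factor receptor, by 1.83 (SE 0.38, adjusted p = 0.0258), while *Tcf21* had at most 4 counts in any library. Of the leukocyte markers, *Lyz2*, a lysozyme, was higher by 2.23 (SE 0.45, adjusted p = 0.0213 by edgeR) and *C1qb*, a complement subunit, by 2.58 (SE 0.49, adjusted p = 0.0139), while *C1qa* had at most 6 counts and *Fcgr1* at most 1. The part of such cells in the *Fosb* and *Egr1* values was not tested.

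**Figure D3:**
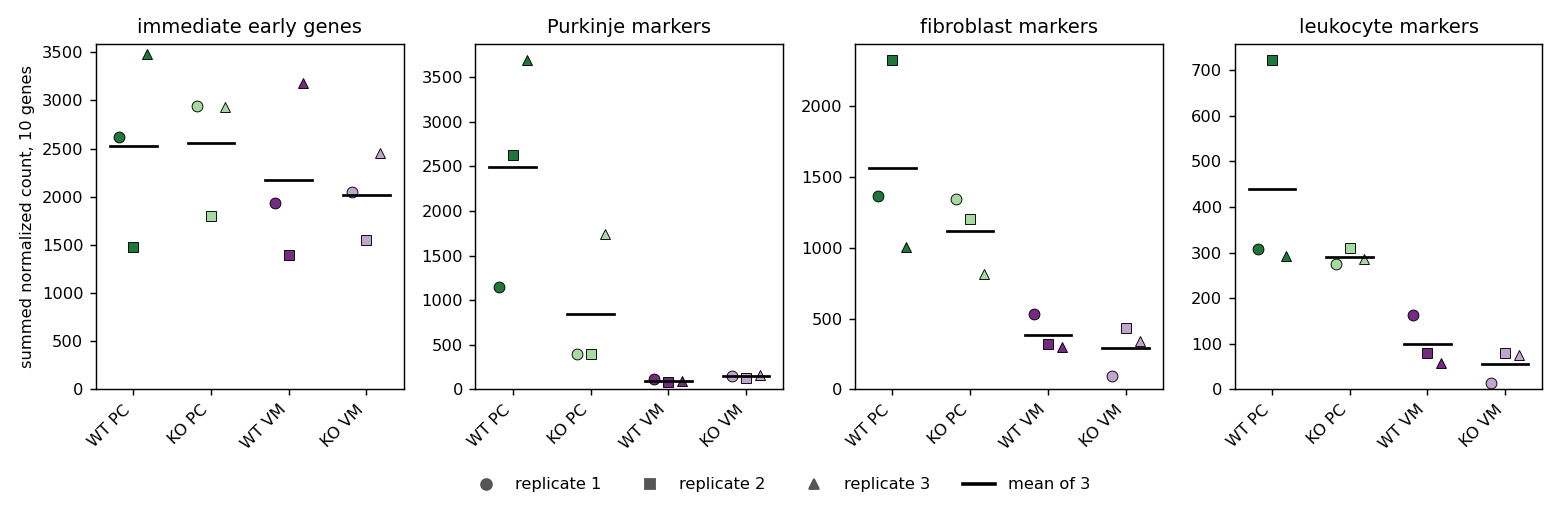
Summed normalized counts (y axis, from 0) of the 10 immediate early genes and of 10 Purkinje, 10 fibroblast and 10 leukocyte markers in each library, by group, with a bar at the mean of 3. The sums of the immediate early genes overlap in all 4 groups, while those of the fibroblast and leukocyte markers are higher in every PC library than in every VM library.

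Whether the loss of *Ncam-1* moved these genes was asked in each cell type. In KO PCs against WT PCs the 10 log2 differences ran from -0.37 for *Junb* to 0.45 for *Zfp36*, with SEs of 0.28 to 0.65. The smallest unadjusted p was 0.361, against 3.22% of the 11754 genes tested under 0.05, and the adjusted p-values were 0.993 to 0.995 by edgeR. In edgeR 0 genes passed the adjustment and 378 had an unadjusted p under 0.05, while DESeq2's Wald test called 7 and edgeR called 132 with no filter on low counts and 3 in one fit of all 12 libraries, no member among them. The knocked-out gene *Ncam1*, with 34 to 116 counts in WT PCs and 0 or 1 in KO PCs, was thus not called in the main edgeR test either. The lack of calls among the members therefore does not show that they were unchanged. No member's groups were separate, as 4.82% of genes were with KO higher and 4.7% with KO lower, and 5 of the 10 estimates were positive, against 49.8% of genes. The interval of *Dusp1* was 0.704 to 1.68 in fold, the narrowest, and over all members the bounds reached from 0.305 to 2.85, the lower for *Fosb* and the upper for *Zfp36*. Without WT PC replicate 2, *Atf3* had -0.60 (unadjusted p = 0.0286 by edgeR), and without WT PC replicate 3, *Nr4a1* had 1.11 (unadjusted p = 0.0462). The number of positive estimates was 2 without WT PC replicate 2 (median -0.30) and 9 without WT PC replicate 3 (median 0.27). It was 8 without KO PC replicate 2 (median 0.18) and 3 without KO PC replicate 3 (median -0.17). The even split of signs thus depended on which libraries of either genotype were used.

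In KO VMs against WT VMs the differences ran from -0.49 for *Atf3* to 0.57 for *Ier2*, and 7 of the 10 were negative, while 47% of all genes were positive. The smallest unadjusted p was 0.149, for *Atf3*, against 5.12% of the 10737 genes under 0.05, and 4 genes (0.0373%), no member among them, passed the adjustment in edgeR. The groups of no member were apart, as those of 4.6% of genes were with KO higher and 5.03% with KO lower. *Atf3* had a fold of 0.711 (interval 0.441 to 1.14), *Nr4a1* 0.719 (0.429 to 1.20) and *Ier2* 1.48 (0.825 to 2.65). Without WT VM replicate 2, *Atf3* had -0.84 (unadjusted p = 0.00246 by edgeR), and without WT VM replicate 1, *Nr4a1* had -0.78 (unadjusted p = 0.0283). All 10 differences were positive without WT VM replicate 3, with a median of 0.34, against a median of -0.09 with it. Leaving out KO VM replicate 2 gave 7 positive differences, with a median of 0.13, and each of the other omissions gave 3 or 4. The lean toward negative values thus depended on single libraries. The interaction, which asks whether KO acted unlike in PCs and in VMs, ran from -0.57 to 0.63 over the members with a smallest unadjusted p of 0.412 in the fit of all 12 libraries by edgeR, and without WT PC replicate 3 *Nr4a1* had 1.55 (unadjusted p = 0.0340). Its intervals reached from 0.179-fold to 4.69-fold, and 2.9% of the 11323 genes had an unadjusted p under 0.05, with 0 past the adjustment in edgeR or in DESeq2. The KO effect averaged over cell types ran from -0.34 to 0.42, with a smallest unadjusted p of 0.260, where 4.74% of genes were under 0.05 and 3 (0.0265%) passed the adjustment, and without WT PC replicate 2 *Atf3* had -0.53 (unadjusted p = 0.0368 by edgeR).

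**Figure D4:**
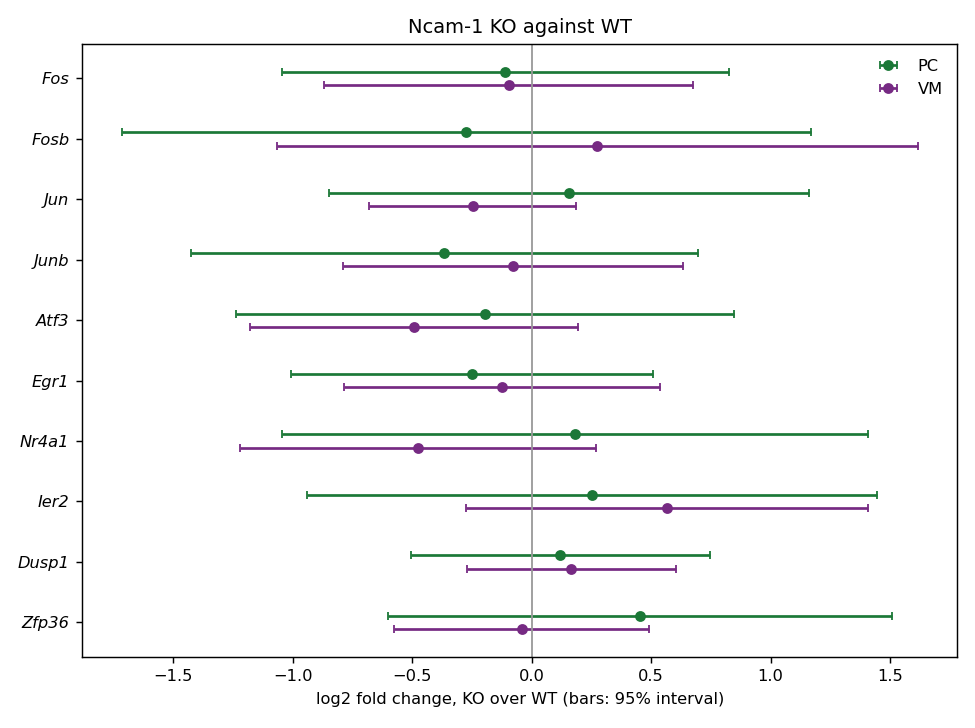
Log2 fold change of KO over WT (x axis) for each of the 10 genes in PCs and in VMs, with bars for 95% intervals. Every interval shown includes 0, and the bounds reach from 0.305-fold to 3.06-fold.

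Libraries of the same group differed widely, and the members varied together. The members' summed normalized count was 2616, 1482 and 3482 in WT PCs, 2944, 1798 and 2928 in KO PCs, 1934, 1394 and 3186 in WT VMs and 2048, 1552 and 2457 in KO VMs. Replicate 2 was lowest in each group. All 10 members were highest in replicate 3 in WT PCs and again in WT VMs, and 9 of 10 were lowest in replicate 2 in KO PCs. The members took 0.0474% to 0.128% of the counts outside the mitochondrial genome. After centring each group, all 45 pairs of members had a positive Pearson r over the 12 libraries, with a median of 0.64 and a range of 0.29 to 0.96. The closest pairs were *Fos* with *Dusp1* (0.96) and *Junb* with *Nr4a1* (0.93), and the loosest *Ier2* with *Zfp36* (0.29). The points share library, depth and normalization, and these values are a description. Without WT PC replicate 2 the median was 0.60 (0.18 to 0.95), and without the WT PC and WT VM libraries of replicate 3 it was 0.46, with 3 of 45 pairs below 0.

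**Figure D5:**
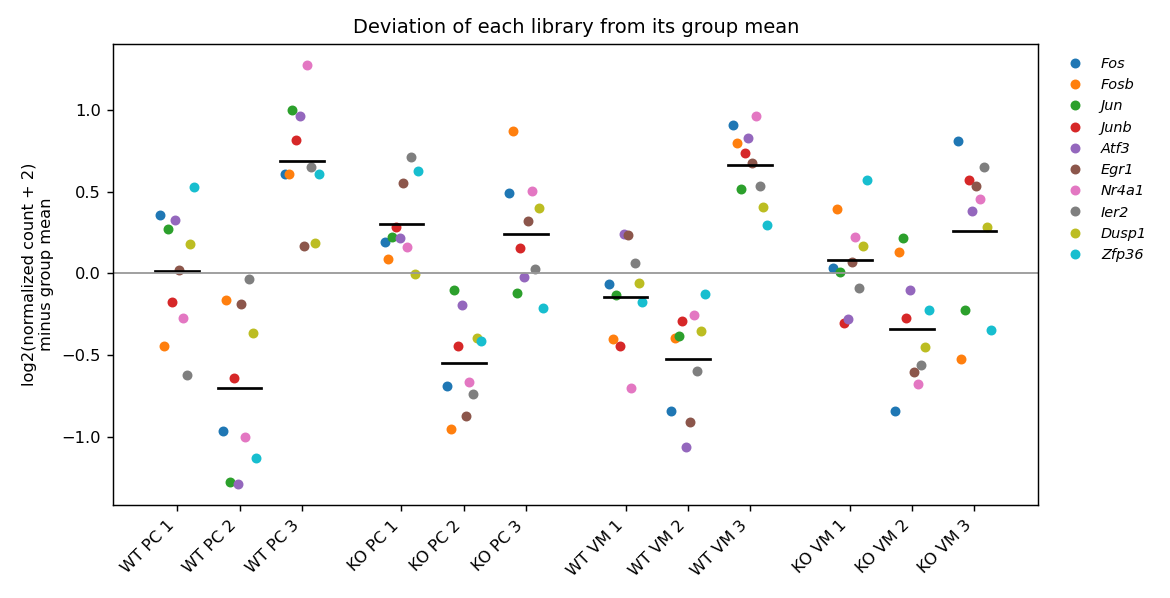
Deviation of each library from its group mean on the log2 scale of normalized count plus 2 (y axis), with 1 coloured point per gene and a bar at the mean of the 10. The means lie lowest in the replicate 2 library of each group and highest in WT PC replicate 3 (0.69) and WT VM replicate 3 (0.67).

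The spread within groups, as the SD of log2 values, had a median of 0.64 over the members, against 0.51 over all 11323 genes tested and 0.41 over 8100 genes whose mean normalized count exceeded 20. *Nr4a1* had the widest spread (0.84), followed by *Fos* (0.80) and *Atf3* (0.78), and *Dusp1* the narrowest (0.37), the only member below the median of all genes. Without WT PC replicate 2 the medians were 0.63 for the members, 0.37 for all genes and 0.30 for those above 20. The members' mean deviation was set beside measures of the libraries, centred in the same way. It correlated at -0.75 with the summed level of 10 heat shock genes over the 12 libraries and at -0.73 over the 11 without WT PC replicate 2. A value without the replicate 3 libraries of WT PCs and WT VMs, where the members' means were highest, is not given. With the sum of smooth muscle and pericyte markers, most of it from *Abcc9*, r was 0.65, and 0.49 without WT PC replicate 2. With counts outside the mitochondrial genome r was 0.51, and 0.12 without it, and with the share of pairs not aligned -0.57 and -0.08. With fibroblast and leukocyte markers r was -0.44 and -0.43, and -0.28 and -0.26 without that library. With endothelial markers, whose sum was mostly *Cd36*, r was -0.44 and with cardiomyocyte markers 0.45, and -0.06 and 0.02 without it. With Purkinje markers r was 0.30, and it rose to 0.46 without WT PC replicate 2. With the mitochondrial percent of counts r was -0.43, and -0.14 without that library. Their part in the shared variation was not tested.

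The genes most like the members were ranked by Pearson r between each gene and the members' mean over the 12 libraries, centred by group, among 11313 other genes, whose median r was 0.12. The nearest were *Klf13*, a Krüppel-like transcription factor (0.94), *Rbm3*, a cold-inducible RNA-binding protein (0.94), *Nbea*, which encodes neurobeachin (0.93), *Gnl3l*, a nucleolar GTPase (0.92), and *B930095G15Rik* (0.92). Without WT PC replicate 2 they had 0.88 to 0.92, and the median over all genes was 0.0052. Of 38 other immediate early genes ranked, 20 had an r above 0.5, as 18.6% of all genes did, and their median was 0.55. Without WT PC replicate 2 these were 16 of 38, 10.1% and 0.37, and without WT PC replicate 3 they were 16 of 38, 11.4% and 0.47. *Btg2*, an antiproliferative gene, had 0.90, *Hes1*, a Notch target, 0.88, and *Btg1*, a relative of *Btg2*, 0.87, while *Cebpb* had -0.52 and *Zfp36l2*, a relative of *Zfp36*, -0.54. These 5 were chosen after their values were seen. The summed level of the 50 other immediate early genes followed the members' mean at 0.94, and at 0.93 without WT PC replicate 2.

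In the tests, 37 to 41 of these 50 other immediate early genes passed the filter. Averaged over genotypes, 2 of 38 passed the adjustment in edgeR, both higher in PCs. They were *Cebpd*, a stress-induced C/EBP factor (2.37, SE 0.48, adjusted p = 0.0213), and *Sgk1*, a kinase induced by serum and glucocorticoids (1.79, SE 0.40, adjusted p = 0.0394). *Cebpd* averaged 28.9 ± 14.0 (SD, n = 3) in WT PCs and 28.6 ± 19.2 in KO PCs, against 8.22 ± 1.54 in WT VMs and 3.43 ± 1.503 in KO VMs. *Sgk1* averaged 97.3 ± 37.1, 104 ± 69.8, 31.9 ± 15.4 and 24.97 ± 15.7 in the same order. Both were thus lower on average in VMs of either genotype, and the part of the fibroblast and leukocyte markers that were also higher in PCs was not tested. In all, 8 of the 38 had an unadjusted p under 0.05, all higher in PCs, against 8.54% of all genes higher in PCs at that threshold, and their median difference was 0.21 with 29 positive, where the median of all genes was 0.02. Within WT 4 of 40 had an unadjusted p under 0.05, against 5.14% of genes on the PC side, and within KO 7 of 38, against 7.11%, again all higher in PCs and none past the adjustment. *Klf4*, a Krüppel-like factor, was among the 3 smallest p-values in both, at 2.10 (SE 0.76) and 2.36 (SE 0.60).

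For the genotype, 0 of 41 in PCs had an unadjusted p under 0.05 in edgeR, against 3.22% of all genes tested. *Klf4* stood at -1.05 (SE 0.59), *Zfp36l2* at -0.96 (SE 0.57) and *Klf10* at -0.86 (SE 0.53). In VMs, where 5.12% of all genes had an unadjusted p under 0.05 in either direction, 1 of 37 was higher and 3 were lower. The higher gene was *Ctgf*, a matricellular protein gene, by 0.52 (SE 0.19, unadjusted p = 0.0157 by edgeR). The lower genes with the smallest p-values were *Rhob*, a small GTPase gene, at -0.56 (SE 0.20, unadjusted p = 0.0122 by edgeR), and *Klf10*, at -0.98 (SE 0.37, unadjusted p = 0.0176). All adjusted p-values were 0.931 or above. *Klf10* averaged 33.3 ± 2.75 (SD, n = 3) in WT VMs and 16.6 ± 6.84 in KO VMs, and 44.0 ± 16.6 and 23.7 ± 4.002 in WT and KO PCs, without overlap in VMs and with overlap in PCs.

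Of 27 genes that encode the kinases and factors upstream of this response, 26 were tested in each comparison. *Elk3*, a ternary complex factor that partners serum response factor, was higher in PCs by 2.19 (SE 0.39, adjusted p = 0.0106) averaged over genotypes and by 2.60 (SE 0.49, adjusted p = 0.0189) within KO, with 1.74 (SE 0.54, adjusted p = 0.604) within WT, all by edgeR's test. It averaged 64.4 ± 29.6 and 85.8 ± 58.9 (SD, n = 3) in WT and KO PCs and 18.6 ± 10.7 and 13.5 ± 2.07 in WT and KO VMs. *Elk3* is also known to be expressed in endothelial cells, whose markers are given above. No other gene of the list passed the adjustment, and the median difference averaged over genotypes was 0.02 with 14 of 26 positive. Among 10 heat shock genes none passed the adjustment in any comparison by edgeR. Averaged over genotypes, *Hspa1a*, an inducible HSP70, differed by 0.83 (SE 0.36) and *Hspb1* by 0.50 (SE 0.21) toward PCs, and *Hspd1*, a mitochondrial chaperonin, by -0.34 (SE 0.13), with unadjusted p of 0.0359, 0.0318 and 0.0215. The summed heat shock level was 7371, 6975 and 4342 in WT PCs, 5623, 6524 and 5238 in KO PCs, 7988, 6325 and 5400.2 in WT VMs and 6219, 6892 and 5806 in KO VMs. It was lowest in replicate 3 of each group, where the members' sum was highest in 3 of the 4 groups.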

How the data were processed

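RNA of sorted PCs and VMs was amplified with the Nugen Ovation Trio low input kit and sequenced as 50 bp read pairs. Per the labels, the authors aligned reads to mm10 with STAR and counted them with HTSeq, and the values deposited are raw counts per gene, without normalization, 1 file per library with 48526 genes. HTSeq's classes of unassigned pairs were left out of tests. Lengths and positions came from GENCODE M21, which lacks 382 identifiers with 0.00511% of the counts. Groups followed the sample titles.

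Each comparison of 2 groups used its 6 libraries, TMM normalization, a filter that kept genes whose mean normalized count exceeded 5, edgeR 4.0.16 (R 4.3.3) with glmQLFit and glmQLFTest, and the Benjamini-Hochberg method across every gene tested. The averaged contrasts and the interaction used all 12 libraries. Normalized counts are counts over effective library size, scaled to a common depth, with 2 added before log2 where libraries were compared. Correlations have no test. Alternatives were DESeq2 1.42.0, its size factors in edgeR, no filter, mitochondrial genes left out, a replicate block, one fit of 12 libraries and the omission of each library. Leaving libraries out of the correlations and of the spread was added after seeing the data. The fitting step was tested on simulated counts with larger changes than the members showed in the main tests, so detection of theirs was not measured. Replicates differed beyond sampling noise, with chi-square of at least 4.96 per degree of freedom. Counting error covers reads, not molecules, since no molecular identifiers were used. Promoter windows came from RefSeq. Genes were named by a rule: all members, genes of the other lists past the adjustment or with the 3 smallest p-values, *Ncam1*, and the 5 genes most like the members. Outside the rule, *Btg2*, *Hes1*, *Btg1* and *Cebpb* were named for their r. *Prdx2*, *Cd36*, *Tcf21*, *C1qa* and *Fcgr1* were named to state limits. The members, lists and rule were chosen with earlier results of these data known.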

Additional observations from a re-analysis of the deposited data

How the results depend on the processing

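Over the 10 members in the 4 comparisons of 2 groups and in PC against VM averaged over genotypes, 557 values kept direction and side of the unadjusted threshold under the alternatives, 57 turned sign, 23 gained and 13 lost an unadjusted p under 0.05. DESeq2's size factors in edgeR and leaving out mitochondrial genes turned no member's sign. The cause of the changes below was not tested.

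The genes past the adjustment numbered 13 in WT PC against WT VM, 94 in KO PC against KO VM, 0 in KO PC against WT PC, 4 in KO VM against WT VM, 0 for the interaction, 166 for PC against VM averaged over genotypes and 3 for KO against WT averaged over cell types. DESeq2's Wald test gave 116, 130, 7, 10, 0, 456 and 15 in that order. With no filter on low counts they were 297, 326, 132, 47, 19, 561 and 89. One fit of all 12 libraries gave 38, 1, 3 and 1 for the first 4. Members with an unadjusted p under 0.05 numbered 1 with DESeq2 in KO PC against KO VM, where *Egr1* had an unadjusted p of 0.0819, and 2 with no filter in KO VM against WT VM. *Zfp36* turned from -0.02 to 0.018 on the log2 scale in WT PC against WT VM in one fit of all 12 libraries.

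Replicate numbers in the titles are not said to mark a heart, and source names number the WT libraries 1, 3 and 4. Over 8100 genes, same-numbered PC and VM libraries correlated at 0.207, 0.0813 and 0.1496 in WT and -0.0096, 0.121 and 0.019 in KO, and every WT library correlated best with its own number, while KO libraries did not all do so. With the replicate number as a block the calls were 4, 121, 1, 7, 0, 119 and 4. Under the block 4 members had an unadjusted p under 0.05 in PC against VM averaged over genotypes, the adjusted p of *Egr1* by edgeR was 0.0141 there and 0.0138 in KO PC against KO VM, that of *Fosb* was 0.115 in the average, and *Atf3* had 0.045 in KO PC against WT PC.

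Leaving out each library in turn gave 1 to 108 genes past the adjustment in WT PC against WT VM, 19 to 150 in KO PC against KO VM, 0 to 4 in KO PC against WT PC, 2 to 10 in KO VM against WT VM, 56 to 425 for the averaged cell type contrast and 3 to 9 for the averaged genotype contrast. Members with an unadjusted p under 0.05 numbered 0 to 2, 1 to 3, 0 to 1, 0 to 1, 2 to 4 and 0 to 1 in the same order, and 0 to 1 for the interaction. The log2 ranges of 8 members for the interaction crossed 0 (between -0.80 and 1.55), as did those of 6 in KO against WT averaged over cell types (between -0.40 and 0.36). The members below had ranges that crossed 0 in the other 5 comparisons. In WT PC against WT VM *Fos* ran from -0.17 to 0.75, *Jun* from -0.69 to 0.28, *Junb* from -0.27 to 0.77, *Atf3* from -0.75 to 0.25, *Nr4a1* from -1.30 to 0.28 and *Zfp36* from -0.27 to 0.34. In KO PC against KO VM *Fos* ran from -0.16 to 0.66, *Junb* from -0.17 to 0.36, *Atf3* from -0.069 to 0.30 and *Nr4a1* from -0.016 to 0.56. In KO PC against WT PC *Fos* ran from -0.45 to 0.19, *Fosb* from -0.93 to 0.14, *Jun* from -0.25 to 0.73, *Junb* from -0.63 to 0.18, *Egr1* from -0.50 to 0.069, *Atf3* from -0.60 to 0.33, *Ier2* from -0.14 to 0.69, *Nr4a1* from -0.17 to 1.11 and *Dusp1* from -0.14 to 0.29. In KO VM against WT VM *Fos* ran from -0.58 to 0.51, *Jun* from -0.40 to 0.076, *Junb* from -0.43 to 0.44, *Egr1* from -0.43 to 0.27, *Atf3* from -0.84 to 0.0022, *Nr4a1* from -0.78 to 0.21 and *Zfp36* from -0.39 to 0.15. In the averaged cell type contrast *Jun* ran from -0.18 to 0.30, *Junb* from -0.12 to 0.39, *Atf3* from -0.32 to 0.18 and *Nr4a1* from -0.49 to 0.30. *Fosb* and *Egr1* stayed positive in all 3 cell type contrasts whichever library was left out.

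Depth limits *Fosb* most, with 5 to 18 raw counts per VM library. With 3 libraries a group, and no undissociated tissue among them, intervals of most members span 2-fold or more.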
